A study of Mus musculus with 3 samples.

Results

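The miR-26 family of the mouse was described in extracellular vesicles (EVs) isolated from testis at postnatal day 7 (PND7). Small RNA was sequenced in 3 libraries of the same condition, each made from the pooled EVs of 10 C57/BL6 male mice, without a group to compare them with. The EVs came from the supernatant of decapsulated testes digested with Accumax, so they were not separated by the cell type that released them, and proteinase K, PMSF and RNase A were applied before RNA was extracted. All samples are titled as treated, but the labels give no untreated counterpart. The members were the miRNA entries named for miR-26a or miR-26b, led by mmu-miR-26a-5p and mmu-miR-26b-5p (written below without the species prefix), of either arm and of the type mature or hairpin. The rule found 9 entries under 5 identifiers, of 1347 mature and hairpin entries in all. The family was selected on its read counts in these same libraries, and all levels and ratios below are therefore descriptions, with no test.

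An miRNA is cut from a hairpin precursor by Drosha and Dicer, and of the resulting duplex usually the strand from the 5p or from the 3p arm is retained by an Argonaute protein. The retained strand finds its target transcripts mainly through its seed, the bases behind its 5′ end. The genes of the miR-26 family lie within genes of the C-terminal domain small phosphatases, and miR-26 is known as a repressor of Ezh2, the catalytic subunit of Polycomb repressive complex 2.

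The mature sequences are shown because the comparison of the members turns on the few bases in which they differ. They are RefSeq sequences for GRCm38.p6, which corresponds to the mm10 build in the submitters' processing notes, and all 5 identifiers were found there. Capitals mark the seed, bases 2 to 8 counted from the 5′ end.
miR-26a-5p: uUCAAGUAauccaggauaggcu
miR-26b-5p: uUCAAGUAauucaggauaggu
miR-26a-1-3p: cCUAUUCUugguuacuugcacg
miR-26a-2-3p: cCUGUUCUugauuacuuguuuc
miR-26b-3p: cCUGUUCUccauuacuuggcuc
The 5p arms share the seed UCAAGUA, and no other mature miRNA in the RefSeq table has it. Over the 21 bases that both 5p arms have, they differed by C11U and C21U, with the base of miR-26a-5p first and positions counted from the 5′ end, and miR-26a-5p is longer by 1 base. The 3p arms are less alike. miR-26a-2-3p and miR-26b-3p share the seed CUGUUCU, which miR-6932-3p and miR-7039-3p also have in the table, whereas miR-26a-1-3p departs from miR-26a-2-3p within the seed by A4G and at 6 of 22 bases in all.

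Mature miR-26a-5p is encoded by Mir26a-1 (chr9:119031796-119031885, plus strand) and again by Mir26a-2 (chr10:126995530-126995613, plus strand), and its reads cannot be divided between these genes. In GENCODE vM21 on GRCm38, Mir26a-1 lies in an intron of Ctdspl in all 3 transcripts that span it. Mir26a-2 lies within Ctdsp2, in an intron of 1 transcript and overlapping an exon, outside the coding sequence, of the 2 other transcripts that span it. Mir26b (chr1:74394310-74394394, plus strand) lies in an intron of Ctdsp1 in both transcripts. Each host gene is on the same strand as its miRNA. The precursors are shown, with both mature arms in capitals, because the catalogues name a precursor for every entry, of the type mature as well as hairpin.
Mir26a-1: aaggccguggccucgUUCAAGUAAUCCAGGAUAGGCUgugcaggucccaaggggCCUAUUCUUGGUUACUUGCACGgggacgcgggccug
Mir26a-2: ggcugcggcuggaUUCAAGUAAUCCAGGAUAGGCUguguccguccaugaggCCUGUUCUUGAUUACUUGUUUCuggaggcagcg
Mir26b: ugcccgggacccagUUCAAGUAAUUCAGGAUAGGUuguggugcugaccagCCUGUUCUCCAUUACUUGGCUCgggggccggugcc
The catalogues name Mir26a-2 as the precursor of miR-26a-5p in all libraries, although the same mature sequence stands in Mir26a-1.

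The libraries held 25716952 to 27939308 clean reads, of which 870967 to 1005836 were counted on mature and 493345 to 612122 on hairpin entries. What sets a hairpin entry apart from a mature one is not stated in the sources used here. Levels are given as CPM, the count scaled to the sum of all counts of the same type in the same library. The precision of a single library is given as an exact binomial (Clopper-Pearson) 95% interval, which covers counting error only and takes every read as independent. PCR copies were not told apart, so the interval can be too narrow even for counting error.

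The retained 5p strand of miR-26a was among the most abundant mature miRNAs of the EVs, and miR-26b-5p was far below it. The mature entry of miR-26a-5p had 27886, 46965 and 45287 counts in replicates 1, 2 and 3, or 32017, 46693 and 46858 CPM. Replicates 2 and 3 lay close together, with overlapping intervals of 46281 to 47107 and 46438 to 47281 CPM, and replicate 1 was lower, with an interval of 31649 to 32389 CPM. The mean was 41856 ± 8521 CPM (SD, n = 3), which ranked 4th of 604 mature miRNAs, and the rank in the single libraries was 5, 4 and 4. The libraries varied by a coefficient of variation of 20.4%, against 0.514% for counting alone.

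Around it in the order of mean levels, let-7c-5p, with 108944 ± 9000 CPM, and miR-181a-5p, with 53845 ± 5646 CPM, were higher than miR-26a-5p in every library (SD, n = 3 each). let-7a-5p, with 35380 ± 8839 CPM, and miR-411-5p, with 34956 ± 5357 CPM, were lower in every library. The differences from miR-181a-5p, at -11989 ± 14144 CPM, and from miR-411-5p, at 6901 ± 7298 CPM, were smaller than their SD over the 3 libraries. The difference from let-7a-5p was 6476 ± 5808 CPM, and the distance from let-7c-5p was -67088 ± 6776 CPM, well beyond the spread.

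The mature entry of miR-26b-5p had 1027, 1355 and 1178 counts, or 1179, 1347 and 1219 CPM, in the same order. These values lay close together, with a mean of 1248 ± 87.8 CPM (SD, n = 3) and rank 59. Its neighbours in rank, miR-542-5p at 1367 ± 274 CPM, miR-574-5p at 1258 ± 427, miR-541-5p at 1240 ± 145 and miR-423-3p at 1226 ± 276 CPM, differed from it by less than the SD of the difference over the 3 libraries. None of them was above it, or below it, in all 3 libraries.

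Replicate 1 was the lowest library for both 5p members. This was also the case for 108 (39.7%) of the 272 mature miRNAs that reached 10 counts in each library, so it was not particular to miR-26. The highest library exceeded the lowest by a factor of 1.46 for miR-26a-5p and 1.14 for miR-26b-5p, against a median of 1.72 over the 272 miRNAs. Of these, 262 had a larger factor than miR-26b-5p, which was thus among the steadiest mature miRNAs between libraries. The 272 include miRNAs with counts down to 10, where counting error widens the factor. The comparison is therefore not made at an equal count level.

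**Figure D1:**
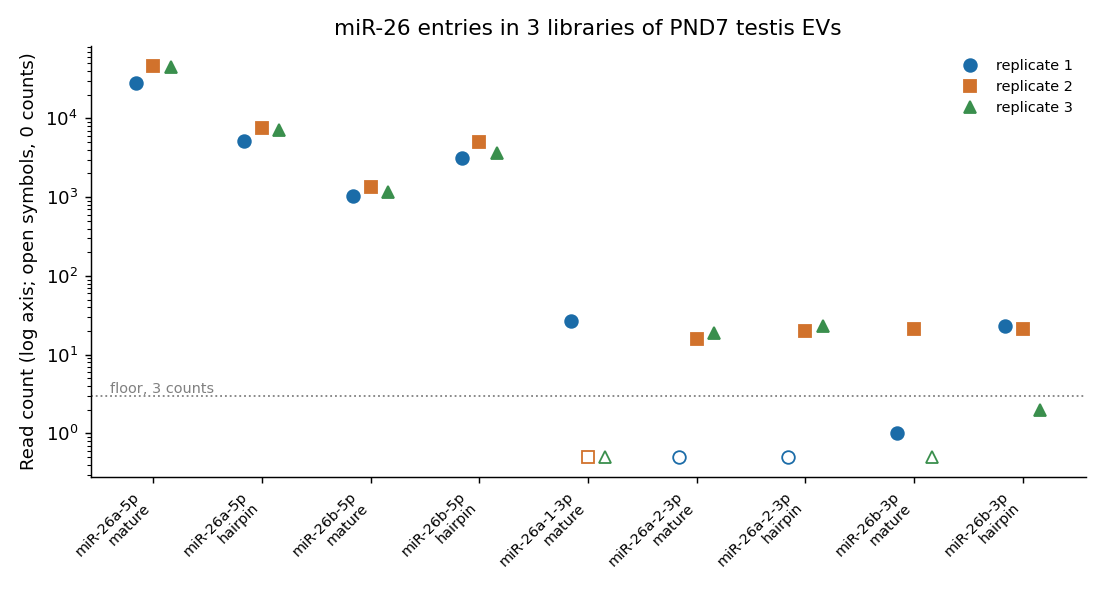
Read counts (vertical log axis) of the 9 miR-26 entries (horizontal axis), with a symbol for each of the 3 libraries; open symbols at the foot of the axis stand for 0 counts, and the dotted line is the floor of 3 counts. The 5p entries held 1027 counts or more in every library, and the 3p entries at most 27.

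The mature and hairpin types gave different pictures of the members. The hairpin entry of miR-26a-5p had 5212, 7526 and 7219 counts, or 11786 ± 1063 CPM of the hairpin counts (SD, n = 3; rank 19 of 743). The hairpin entry of miR-26b-5p had 3182, 4982 and 3647 counts, or 6968 ± 1016 CPM (SD, n = 3; rank 29). miR-26a-5p was higher than miR-26b-5p in both types and in every library, but the distance was far smaller among the hairpin entries.

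For miR-26a-5p the mature count exceeded the hairpin count 5.35, 6.24 and 6.27 times in replicates 1, 2 and 3, a mean log2 ratio of 2.57 ± 0.13 (SD, n = 3). For miR-26b-5p it was the hairpin count that exceeded the mature count, 3.10, 3.68 and 3.10 times, a log2 ratio of mature to hairpin of -1.71 ± 0.14 (SD, n = 3). The members thus lay on opposite sides of 0 in every library, and their log2 ratios differed by 4.05, 4.52 and 4.28. Hairpin entries made up 14.4% ± 1.14 of the mature and hairpin counts of miR-26a-5p and 76.6% ± 1.75 of those of miR-26b-5p (SD, n = 3 each).

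Neither direction is rare among miRNAs. Of the 221 identifiers with at least 10 counts of both types in every library, 104, or 47.1%, had more mature than hairpin counts in all 3 libraries, as miR-26a-5p did. A further 66, or 29.9%, had more hairpin than mature counts in all 3, as miR-26b-5p did. The median log2 ratio was 0.27. miR-26a-5p held place 11 from the most mature end of the 221, and miR-26b-5p place 30 from the hairpin end. A split between members of a family was not particular to miR-26 either. The mean log2 ratio was 2.51 for miR-30b-5p and -2.33 for miR-30e-5p, and 1.85 for miR-29b-3p and -2.74 for miR-29a-3p. By contrast, let-7a-5p, at 0.89, and let-7c-5p, at 1.67, lay on the same side of 0. How many families are split was not counted.

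**Figure D2:**
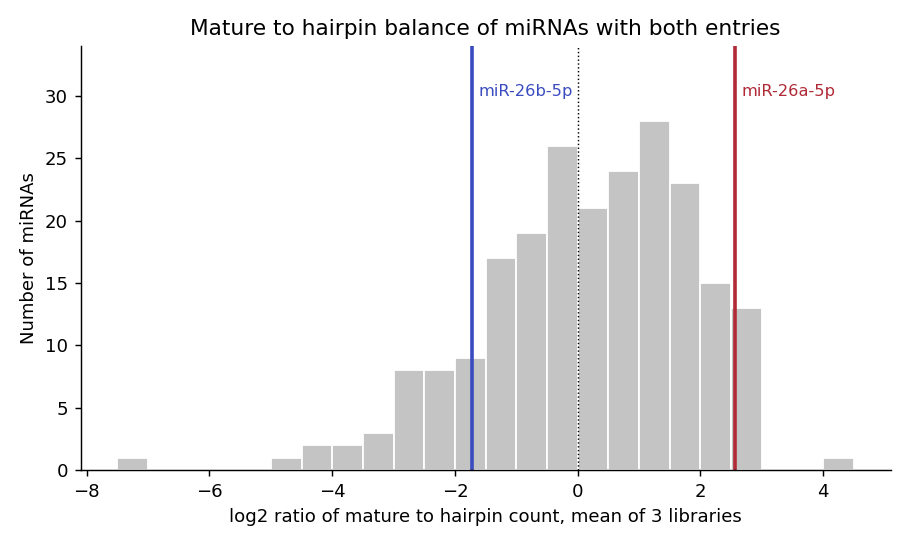
Number of miRNAs (vertical axis) by the log2 ratio of mature to hairpin count, averaged over 3 libraries (horizontal axis), for the 221 identifiers with at least 10 counts of both types in every library. The lines mark miR-26a-5p at 2.57 and miR-26b-5p at -1.71, on either side of 0, where both counts are equal.

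The ratio of the paralogues therefore depended on the entry type. In the mature type miR-26a-5p exceeded miR-26b-5p 27.2, 34.7 and 38.4 times, a mean log2 ratio of 5.05 ± 0.26 (SD, n = 3). In the hairpin type the factor was 1.64, 1.51 and 1.98, a log2 ratio of 0.76 ± 0.20. With both types summed it was 7.86, 8.60 and 10.9, a log2 ratio of 3.17 ± 0.24. miR-26b-5p accordingly made up 2.96% ± 0.527 of the mature 5p counts of the family, 37.1% ± 3.21 of the hairpin 5p counts and 10.0% ± 1.47 of their sum (SD, n = 3 each). The ranges of these shares over the 3 libraries did not overlap between mature, at most 3.55%, and hairpin, at least 33.6%.

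**Figure D3:**
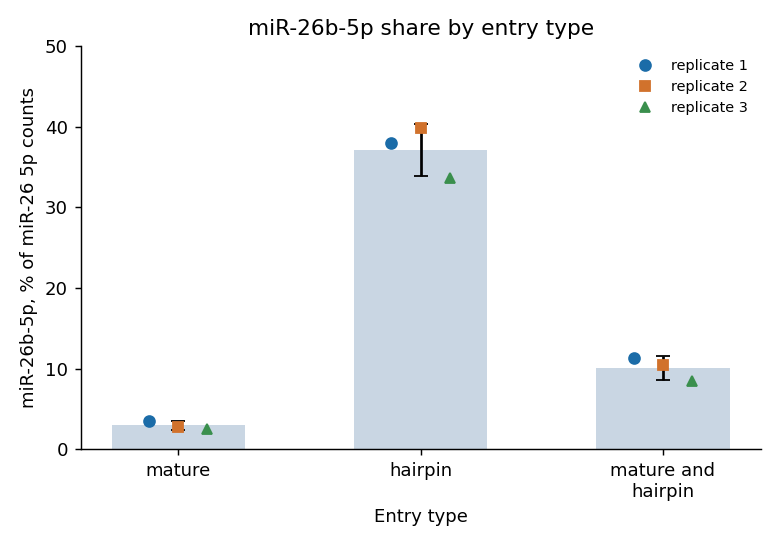
Share of miR-26b-5p in the 5p counts of the family (vertical axis, percent) by entry type (horizontal axis); bars are means, error bars SD over 3 libraries, and points the libraries. The share was 2.96% in the mature type, 37.1% in the hairpin type and 10.0% in their sum.

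In sequence, the 5p members differ in length. The base that follows the mature arm in the precursor is G in both miR-26a genes and U in Mir26b. This restates the difference in length, since that U of Mir26b is itself followed by G, as is the last U of miR-26a-5p. Reference lengths were found for 176 of the 221 identifiers. The 102 miRNAs of 22 bases, the length of miR-26a-5p, had a median log2 ratio of mature to hairpin of 0.74, and the 32 miRNAs of 21 bases, the length of miR-26b-5p, one of 0.13. The median was -0.06 for the 32 miRNAs of 23 bases and -0.43 for the 6 of 24 bases, so it did not rise steadily with length. Among those of 21 bases, 4 had a lower ratio than miR-26b-5p, and among those of 22 bases, 7 had a higher ratio than miR-26a-5p. These are descriptions across miRNAs counted in the same libraries. Whether length has a part in the difference between the members was not tested.

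The 3p strands, which pair with the 5p strands in the duplex, were near the limit of detection. miR-26a-1-3p had 27 mature counts in replicate 1 and 0 in replicates 2 and 3, and no hairpin entry. miR-26a-2-3p went the other way, with 0 mature and 0 hairpin counts in replicate 1, 16 mature and 20 hairpin counts in replicate 2, and 19 mature and 23 hairpin counts in replicate 3. A count of 0 allows up to 3 counts, a limit in 1 direction that equals 3.44, 2.98 and 3.10 CPM of the mature counts in replicates 1, 2 and 3, and the exact intervals, which are two-sided, reach 4.24, 3.67 and 3.82 CPM. The 3p strand of miR-26a was thus credited to Mir26a-1 in 1 library and to Mir26a-2 in the others, although the sequences differ at 6 bases. Of the 6 arms for which the catalogues held mature entries of both numbered paralogues, the other 5 had both in at least 1 library, in 1 case on a single count. In some of these 5, the entry with the higher count also changed between libraries, so a change of the leading name was not particular to miR-26a. Other mature miRNAs at low levels were also counted in 1 library and absent from the others, for example at 56.3, 0 and 0 CPM in replicates 1, 2 and 3. Presence in some libraries only was thus not particular to miR-26a either. Whether the change of name arose in the vesicles, in the assignment of reads or in the variation of low counts was not tested.

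miR-26b-3p had 1, 21 and 0 mature counts and 23, 21 and 2 hairpin counts in replicates 1, 2 and 3. Its summed counts of 24, 42 and 2 set replicate 3 apart, where 5p counts of miR-26b were not lower than in replicate 1.

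The 5p arm exceeded the 3p arm in both members and in every library. For miR-26a the mature counts of the 5p arm were 1033, 2935 and 2384 times those of the 3p arms in replicates 1, 2 and 3, with exact binomial 95% intervals of 710 to 1568, 1807 to 5136 and 1526 to 3959 for counting error. For miR-26b the factor was 1027 in replicate 1, on a single 3p count and with an interval of 184 to 40603, and 64.5 in replicate 2, with an interval of 42.0 to 105. In replicate 3, with no 3p count, the 5p arm was 393-fold higher when set against the floor of 3 counts. The exact interval there had a lower bound of 319. Nearly all mature 3p counts of miR-26b, 21 of 22, thus came from replicate 2.

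With counts under 3 set to 3, the log2 ratio of 5p to 3p was 10.01, 11.52 and 11.22 for miR-26a, with a mean of 10.92 ± 0.80, and 8.42, 6.01 and 8.62 for miR-26b, with a mean of 7.68 ± 1.45 (SD, n = 3 each). The values for miR-26b in replicates 1 and 3 were set by that floor, so the mean depends on it. In these libraries the counting intervals of both members overlapped, and the counts do not separate them there. In replicate 2, without a floored count, the intervals of the factor did not overlap, at 1807 to 5136 for miR-26a and 42.0 to 105 for miR-26b. These intervals leave out the spread between libraries, and the mature 3p counts of miR-26b were 1, 21 and 0. The separation thus rests on 1 library with an outlying 3p count, and the members are not told apart by it in general. With 1 count added to both sides instead, replicate 3 of miR-26b reached 10.20, above replicate 1 of miR-26a at 9.96. Within each library miR-26a was still higher, at 9.96, 11.43 and 11.14 against 9.01, 5.95 and 10.20 for miR-26b. With mature and hairpin counts summed, miR-26a was higher in replicates 1 and 2. In replicate 3 miR-26b was higher, at 10.65 against 10.29, on a 3p count set to the floor.

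A 5p arm above the 3p arm in all 3 libraries was the case for 64 of 127 miRNAs with both arms and at least 10 counts of the higher arm in every library, or 50.4%, and the reverse for 39, or 30.7%. Both miR-26a and miR-26b were among the former. In 80 of the 127, an arm had under 3 counts in at least 1 library, so places in the order of the ratios depend on the floor and are not given.

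**Figure D4:**
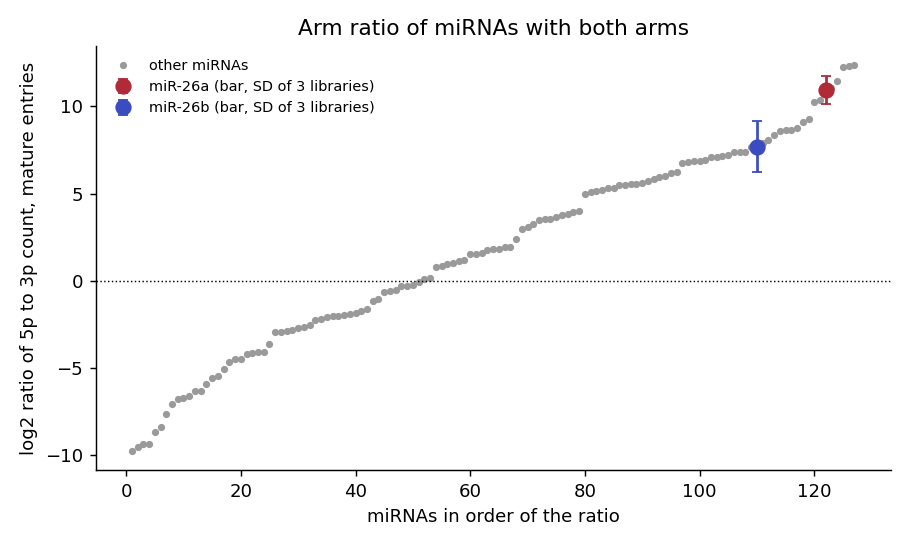
Log2 ratio of 5p to 3p mature counts (vertical axis) of 127 miRNAs with both arms, in order of the ratio (horizontal axis), with counts under 3 set to 3. miR-26a, at 10.92, and miR-26b, at 7.68, lie above 0, their bars are the SD over 3 libraries, and the value of miR-26b depends on that floor.

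Taken as a family, miR-26 held 3.32%, 4.81% and 4.81% of the mature miRNA counts in replicates 1, 2 and 3, with a mean of 4.31% ± 0.858 (SD, n = 3). Of the hairpin counts it held 1.88% ± 0.172. Mature sequences could be assigned to 442 of the 524 mature entries with a miRBase name, which held 96.1% of the mature counts. Summed by seed over these, the seed UCAAGUA had 43104 ± 8581 CPM (SD, n = 3) and ranked 5th of 361 seeds, behind those of let-7, miR-127-3p, miR-181 and miR-99a-5p. All but 1248 CPM of this came from miR-26a-5p, so the seed rests on that member.

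The deposited catalogues also hold the mir-26 precursor family of Rfam, a class of reads assigned after miRBase. It had 1638, 3189 and 2596 counts, and 17222 ± 3165 CPM of the precursor counts (SD, n = 3). Of all counts named for miR-26, 75.7% ± 1.67 were mature, 19.8% ± 1.72 hairpin and 4.50% ± 0.415 of the precursor family (SD, n = 3 each). This division was similar in the 3 libraries, while the sum of mature and hairpin counts went from 37358 in replicate 1 to 60906 in replicate 2.

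The mature miRNAs whose levels over the 3 libraries were most like those of miR-26a-5p were found among 67 others with a mean of at least 1000 counts. The measure was the largest absolute difference in log2 deviation from the own mean over the 3 libraries. miR-196a-5p was closest, at 0.059, followed by miR-369-5p at 0.080, miR-196b-5p at 0.098, miR-202-5p at 0.11 and miR-470-5p at 0.16, and the median over the 67 was 0.34. All 5 were lowest in replicate 1, which follows from their choice by closeness to miR-26a-5p. miR-26b-5p came in place 24, at 0.28, since it was only 0.08 below its own mean in replicate 1, where miR-26a-5p was 0.36 below. With 3 libraries of the same condition, such likeness describes how these libraries vary.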

How the data were processed

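RNA of PND7 testis EVs was sequenced by the authors on the BGISEQ-500 platform as 3 libraries. Low-quality reads were removed, and the clean reads were mapped by the authors with Bowtie2 and cmsearch to the genome (mm10 in the submitters' processing notes) and to small RNA databases, with each read given to a single class, miRBase first. Versions are not given in the sources used here. The authors deposited whole-number counts per small RNA and per class, and each class as a percent of the clean reads. A deposited column headed as molecular identifiers held the CPM of the clean reads and was not used.

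Class totals of the catalogues equalled the deposited class counts. Entries absent from a catalogue were taken as 0, and counts were scaled to CPM of their type. Ratios were formed within libraries, with counts under 3 set to 3 for the arms only, and given as mean and SD. The libraries are labelled as biological replicates. The calculation of mature to hairpin ratios was tested on simulated data. Rows that name no small RNA stayed out.

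The members and lists were chosen with earlier results of these data known. Named were all members, mir-26 entries of other types, the 2 mature miRNAs on either side of each 5p member in rank, the 5 closest in pattern to miR-26a-5p, and miRNAs that share its seed. The most abundant miRNA is named where a denominator leaves it out. Members of the miR-29, miR-30 and let-7 families were named later, as examples of mature to hairpin ratios within families. Mature and precursor sequences came from RefSeq (GRCm38.p6), and gene models from GENCODE vM21. Alternatives changed denominators, entry types, scaling, averaging, the treatment of 0 and low counts, and each replicate left out. The scripts ran under Python 3.11.15 with numpy 2.4.6, pandas 2.3.3, matplotlib 3.10.9 and SciPy 1.17.1.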

Additional observations from a re-analysis of the deposited data

Results flagged for a closer look

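The mir-26 precursor family of Rfam had a mean of 2474 counts per library, and rank 10, 8 and 11 among the precursor families in replicates 1, 2 and 3. It was singled out because its class lies outside the mature and hairpin counts on which the comparisons of the members rest, and there was no control library.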

How the results depend on the processing

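None of the 63 alternatives turned the direction of a value, but only the log2 ratios have a sign that could turn. Of the 63, 48 stayed within the SD over the libraries or, for counts and ranks, within 1.5 times. A mean of 3 libraries always stays within that SD when 1 is left out, so those alternatives were bound to do so. Changes of denominator or type moved levels by construction. With mature and hairpin counts as the denominator, miR-26a-5p had 26266 CPM, miR-26b-5p 784 CPM and the family 2.71% of the counts. Without miR-127-3p, the most abundant mature miRNA, in the denominator, the values were 56247 CPM, 1689 CPM and 5.80%. With mature and hairpin counts summed, they were 30648 CPM, 3376 CPM and 3.41%. The log2 ratio of miR-26a-5p to miR-26b-5p moved from 5.05 to 3.17 with the types summed and to 0.76 with hairpin entries alone. With each type scaled to its own total, the log2 ratio of mature to hairpin was 1.81 for miR-26a-5p and -2.47 for miR-26b-5p.

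Leaving out each replicate in turn gave 39355 to 46775 CPM for miR-26a-5p, 1199 to 1283 CPM for miR-26b-5p, and log2 ratios of the paralogues from 4.94 to 5.19. The log2 ratio of 5p to 3p mature counts of miR-26b, 7.68, was 8.52 without replicate 2, which held 21 of its 22 mature 3p counts. It was 7.22 without replicate 3 and 8.38 with 1 count added to both sides. That of miR-26a went from 10.62 to 11.37 as replicates were left out. miR-26a-5p stayed at rank 4, and miR-26b-5p went from rank 58 to rank 64. A minimum of 100 counts of both types, chosen after the data were seen, left 116 identifiers, 66 of them with more mature and 34 with more hairpin counts in all 3 libraries. With the types summed, also chosen later, 86 of 177 miRNAs had the 5p arm above the 3p arm in all 3 libraries. Depth limits the 3p arms, which had at most 27 counts per entry and library. No paired analysis was possible because the study has a single condition.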
